A study of Mus musculus with 81 samples.

Results

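The data described here are the methylated DNA profiles of P6 cells, the somatic cells of the fetal testis, from F3 mice. They comprise 12 of the 81 libraries of the series, with 5 from the DMSO group and 7 from the TBT group, and all 164382 windows of 100 bp that the deposited table lists. Tributyltin (TBT) is an organotin compound and an obesogen, a chemical that promotes fat accumulation, and DMSO is the solvent used as control. F0 dams of the OG2 strain received 50 nM TBT or DMSO in drinking water from before mating until their pups were weaned, and F3 fetuses of both groups were descended from them without being exposed themselves. OG2 mice carry an EGFP transgene under the Pou5f1 promoter and distal enhancer, which marks germline cells, and both groups carried it. P6 cells were sorted by FACS from E18.5 testes, so that P6 is a mixture of the somatic cell types of the testis and not 1 cell type. The labels do not state which litters or fetuses the libraries came from. The p-values therefore measure the spread between these libraries.

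In MBD-seq, sonicated genomic DNA is captured with a methyl-CpG binding domain protein and sequenced. In mammalian cells, cytosine is methylated mainly in CpG dinucleotides. Most CpG sites in somatic cells are methylated, whereas CpG islands, the dense clusters of CpG at many gene starts, are mostly not. A window therefore collects many reads where methylated CpG sites are dense, and few where CpG sites are rare or unmethylated. Germline gene promoters and long terminal repeats (LTRs) of endogenous retroviruses are known targets of DNA methylation in somatic cells. A library with a weaker capture holds more reads from DNA with few CpG sites.

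The windows cover 0.624% of the 26337776 windows of chromosomes 1 to 19 and X. How they were chosen is not given in the sources used here. The deposited CpG number of a window equalled the number of CpG sites whose cytosine lies in it on GRCm38 in 100% of the windows. The counts over these windows summed to 1105120 to 1376607 per DMSO library (median 1245738) and 1115086 to 1556376 per TBT library (median 1188636). These sums describe the listed windows and not the depth of the whole libraries. Values called scaled counts below are counts divided by the relative library scale from TMM, edgeR's trimmed mean scaling. Chi-square per degree of freedom between pairs of libraries had a median of 1.02 within DMSO, 1.06 within TBT and 1.05 between the groups. The highest value was 1.39, within TBT. In a principal component analysis, component 1 held 15.2% of the variance and ran from TBT library 8 at -41.6 to TBT library 12 at 53.0. The DMSO libraries lay inside this range, from -33.9 to 6.70. TBT libraries 9 to 12 (16.2, 40.0, 23.9 and 53.0) lay above all DMSO libraries, and TBT libraries 6 to 8 (-9.01, -25.2 and -41.6) did not. On component 2, DMSO library 5 stood alone at 73.0 (the others -16.4 to -0.21), and on component 3 TBT library 9 stood alone at 69.3 (the others -28.2 to 0.34).

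The sequences of 8 windows show the kinds of DNA that the results turn on. They are given 5′ to 3′ from the + strand of the GRCm38 genome (RefSeq), and capitals mark CpG sites. The first 3 lie close to gene starts and differ in how many counts their CpG sites collected. The other 5 are taken from the 6 windows of lowest p in the comparison between TBT and DMSO, with few or many CpG sites, and the sixth, near Larp1, is described below without its sequence.
Spaca1, chr4:34049801-34049900: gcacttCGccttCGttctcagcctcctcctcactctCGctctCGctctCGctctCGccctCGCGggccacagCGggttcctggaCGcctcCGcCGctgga
Nup205, chr6:35177801-35177900: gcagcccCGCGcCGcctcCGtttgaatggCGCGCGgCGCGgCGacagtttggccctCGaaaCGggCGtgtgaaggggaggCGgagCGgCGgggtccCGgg
Dazl, chr17:50292701-50292800: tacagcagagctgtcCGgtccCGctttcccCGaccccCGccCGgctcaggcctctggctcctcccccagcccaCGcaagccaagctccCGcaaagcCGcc
Gm15975, chr5:55624101-55624200: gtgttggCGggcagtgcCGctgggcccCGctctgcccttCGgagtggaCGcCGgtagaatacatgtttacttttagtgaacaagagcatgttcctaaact
Prox1 (nearest gene), chr1:190083801-190083900: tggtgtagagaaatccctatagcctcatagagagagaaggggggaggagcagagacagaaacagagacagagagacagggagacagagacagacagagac
Rfx8, chr1:39687801-39687900: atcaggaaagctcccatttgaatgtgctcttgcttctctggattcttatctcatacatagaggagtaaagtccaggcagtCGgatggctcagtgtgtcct
Wnt4 (nearest gene), chr4:137222101-137222200: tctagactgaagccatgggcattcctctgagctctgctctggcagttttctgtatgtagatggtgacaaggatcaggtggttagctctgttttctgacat
Galnt18, chr7:111587601-111587700: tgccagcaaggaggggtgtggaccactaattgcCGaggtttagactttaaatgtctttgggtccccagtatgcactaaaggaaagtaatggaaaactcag

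The Spaca1 window lies in the gene 341 bp after its start and has 12 CpG sites. Spaca1 encodes a protein of the sperm acrosome membrane. This window collected 50, 36, 32, 27 and 33 counts in the 5 DMSO libraries and 30 to 46 in the TBT libraries (median 39). The Nup205 window, 429 bp after the start of the gene for a nuclear pore protein, has 17 CpG sites. It collected 0 counts in every DMSO library and in 6 TBT libraries, where a count of 0 allows up to 3 per library, and 4 counts in TBT library 8. The Dazl window, with 8 CpG sites, lies in an intron 886 bp after the start of this gene for a germ cell RNA-binding protein, and held 0 to 2 counts in each library. These examples were chosen after their values were seen, except for Dazl, which the study shows.

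Across all windows with sequence, the level followed the number of CpG sites in the 500 bp around the window. The mean scaled count per window was 0.832 at the 13034 windows with no CpG in 500 bp and rose to 24.4 at 13 to 19 CpG. It was 17.4 at 20 to 29 CpG and 4.40 at 30 or more. At 13 to 19 CpG, 62.9% of the windows held at least 20 scaled counts and 12.9% held under 2. At 30 or more CpG the order was turned, with 7.60% at 20 or more and 80.7% under 2. Each group followed this course, as the plot of level by CpG number shows. The DMSO mean was 0.688 ± 0.159 (SD, n = 5) with no CpG in 500 bp and 23.5 ± 0.945 at 13 to 19 CpG. The TBT mean was 0.935 ± 0.574 (SD, n = 7) and 25.1 ± 2.57 at these numbers.

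**Figure D1:**
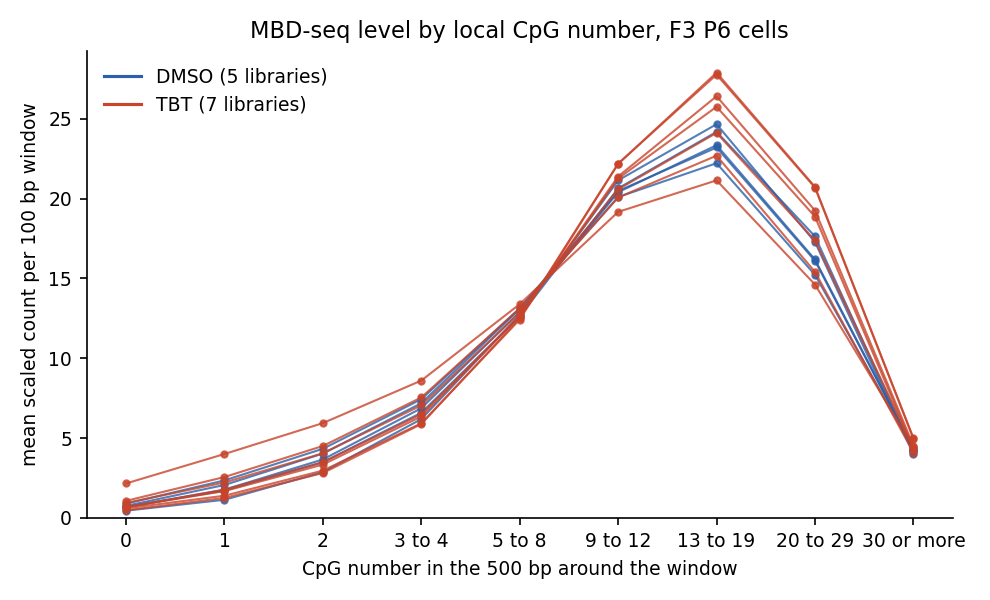
Mean scaled count per 100 bp window (y axis) by the number of CpG sites in the 500 bp around the window (x axis), 1 line per library, DMSO in blue and TBT in red. All 12 lines rise to 13 to 19 CpG and fall to a level between 4.00 and 4.99 at 30 or more, and the TBT lines spread more widely than the DMSO lines.

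CpG-rich gene starts were low in both groups. In the 500 bp after protein-coding gene starts, where windows had a mean of 25.8 CpG per 500 bp, the level was 4.55 ± 0.330 in DMSO (SD, n = 5) and 4.68 ± 0.490 in TBT (SD, n = 7). Between 3 and 3.5 kb after the start it was 11.2 ± 0.348 and 11.2 ± 0.358, with a mean of 4.99 CpG. At both places the groups differed by less than the spread between libraries. Among the 456 promoter windows with at least 30 CpG in 500 bp, 423 (92.8%) held under 2 scaled counts and 6 (1.32%) held 20 or more. Among the 481 promoter windows with 12 to 19 CpG, 139 (28.9%) held under 2 and 203 (42.2%) held 20 or more. Promoters here run from 1000 bp before to 500 bp after any GENCODE gene start.

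**Figure D2:**
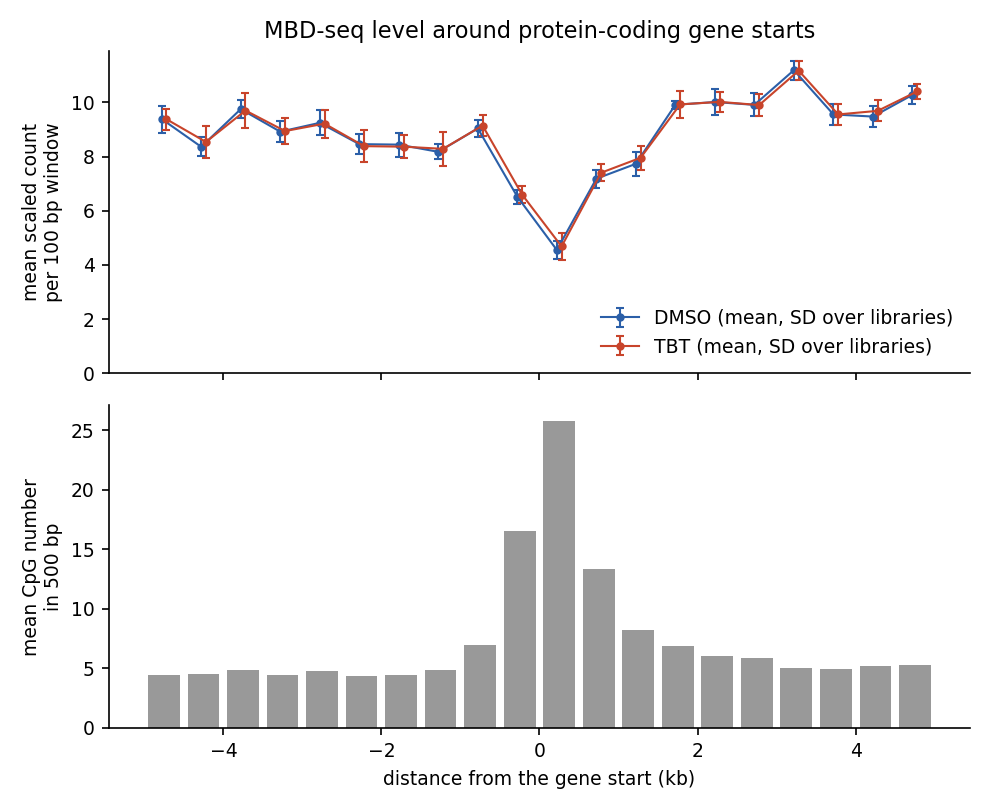
Upper panel: mean scaled count per 100 bp window (y axis) in 500 bp steps of distance from the nearest protein-coding gene start (x axis, kb), with points for the group means and bars for the SD over 5 DMSO (blue) and 7 TBT (red) libraries. Lower panel: the mean CpG number in 500 bp in the same steps. The level is lowest, at 4.55 in DMSO and 4.68 in TBT, in the step after the start, where the CpG number is highest at 25.8.

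CpG-rich windows with many counts were mostly outside promoters. Of the windows with at least 25 CpG in 500 bp, 12 of 579 in promoters held 20 or more scaled counts. The same held for 49 of 185 exonic windows, 17 of 188 intronic windows and 77 of 211 windows outside genes, of which 32 overlapped LTR elements. The 12 promoter windows are labelled by the gene they lie in or, failing that, the nearest protein-coding gene. The labels were Gm13238, Rpl10l, Krt72, Arhgef40, Spaca1 (2 windows), Zcwpw1, Gm21863 (2 windows), G6pd2, Gm13169 and Mkrn3. A label need not be the gene of the promoter. The G6pd2 window and 1 Gm21863 window lay in no gene, 1000 kb and 358 kb from the starts of these genes. The Arhgef40 window lay 4.73 kb after the start of Arhgef40. Some of the 12 windows are described here, chosen after their values were seen. Gm13238 had the highest level, with 114 to 170 counts in both groups. Rpl10l, a testis-specific copy of a ribosomal protein gene, held 44, 64, 44, 42 and 41 counts in DMSO and 46 to 83 in TBT (median 54) at a window with 11 CpG. Zcwpw1, a histone reader of meiotic cells, held 30 to 43 counts in DMSO and 28 to 44 in TBT. A window at Mkrn3, an imprinted gene, held 17 to 22 and 17 to 24. At Krt72, a hair follicle keratin gene, 35 to 51 counts stood against 43 to 72, with a log2 fold change of 0.40 ± 0.14 (SE) that did not pass the test (FDR = 0.914 by edgeR's quasi-likelihood test with Benjamini-Hochberg adjustment). At Gm13238, Rpl10l, Zcwpw1, Mkrn3 and Krt72 the counts of the groups overlapped.

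Exonic windows held more counts than other windows with a like CpG number. At 5 to 8 CpG in 500 bp, the mean was 15.5 scaled counts in exons, 13.2 in introns, 12.1 in promoters and 11.99 outside genes. The exonic level was 15.6 ± 0.298 in DMSO (SD, n = 5) and 15.5 ± 0.213 in TBT (SD, n = 7). The intronic level was 13.3 ± 0.237 in DMSO and 13.2 ± 0.388 in TBT. The X chromosome, of which male cells hold 1 copy, had a lower level than the autosomes at equal CpG number. The ratio of X to autosomes was 0.476, 0.491, 0.474, 0.480 and 0.494 in the DMSO libraries, and 0.480 to 0.506 (median 0.490) in the TBT libraries. The groups overlapped (exact permutation test, two-sided, p = 0.189, 0.788 after adjustment over the 6 library measures tested).

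The libraries differed in the share of counts that fell on windows without a CpG. In DMSO, these 87053 windows took 31.3%, 30.8%, 28.8%, 32.2% and 30.4% of the counts. In TBT they took 28.5% to 35.97% (median 30.2%). TBT library 8 was the highest and TBT library 10 the lowest of all 12, so that TBT lay on both sides of DMSO. The difference between the group means was 0.434 percentage points (exact permutation test, two-sided, p = 0.788). It was -0.370 without TBT library 8 and -0.0425 without DMSO library 3, so its sign rests on these libraries. The ratio of the mean count at 9 to 12 CpG in 500 bp to that at no CpG is called the enrichment ratio here. It was 27.3, 30.2, 47.1, 22.6 and 30.4 in DMSO and ran from 8.90 in TBT library 8 to 47.1 in TBT library 10 (exact permutation test, two-sided, p = 0.641).

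**Figure D3:**
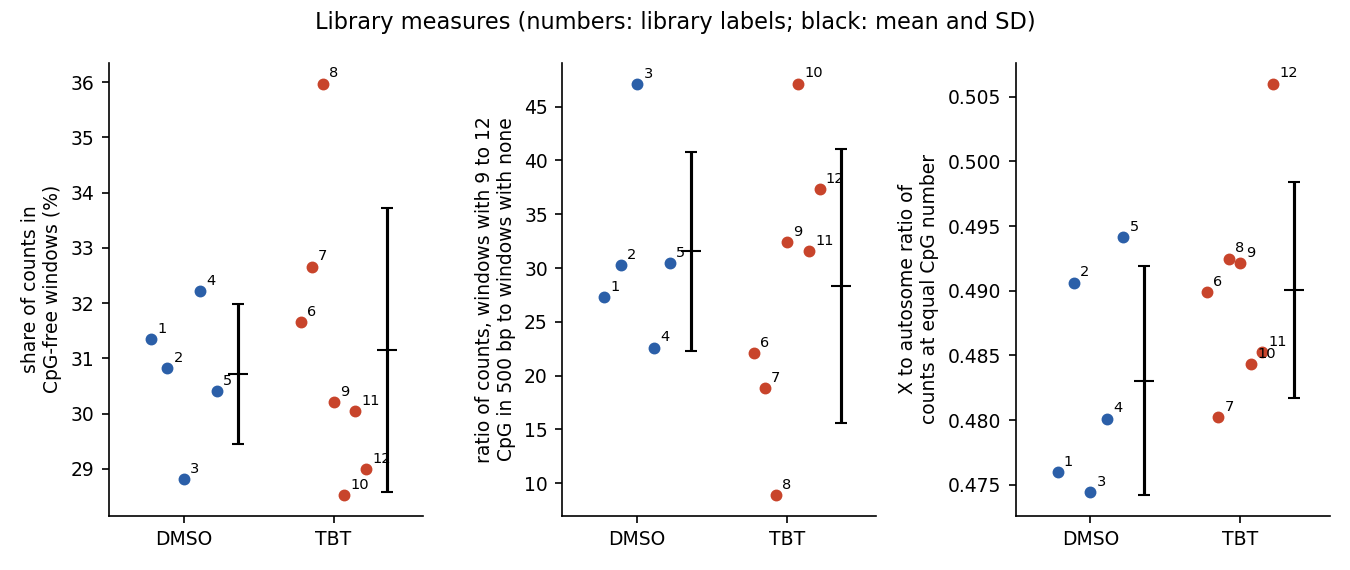
Share of counts in windows without a CpG (left, %), enrichment ratio (middle) and ratio of X to autosomal counts at equal CpG number (right) for each library by group, with the library number beside each point and the group mean and SD in black. TBT library 8 stands at 35.97% on the left and 8.90 in the middle, and the groups overlap in all 3 panels. The y axes do not start at 0.

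None of the 8 classes of CpG number and 5 classes of genomic feature held a share of counts that passed the test between TBT and DMSO. Windows with 6 to 8 CpG took 1.58% ± 0.134 of the counts in DMSO (SD, n = 5) and 1.70% ± 0.317 in TBT (SD, n = 7; exact permutation test, two-sided, p = 0.439). The smallest p belonged to introns, with 44.7% ± 0.175 in DMSO and 44.4% ± 0.192 in TBT (exact permutation test, p = 0.0101, and 0.0505 after adjustment over the 5 feature classes). The DMSO shares of introns ran from 44.5% to 45.01% and the TBT shares from 44.04% to 44.6%. This class passed at 0.05 without DMSO library 5, TBT library 7 or TBT library 10. Promoter windows held 3.38% ± 0.0458 in DMSO and 3.39% ± 0.117 in TBT (exact permutation test, p = 0.955). LTR elements held 14.4% ± 0.0875 and 14.5% ± 0.174 (exact permutation test, p = 0.497).

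At single windows no difference between TBT and DMSO passed the test. Of 47563 windows with enough counts for the test (28.9% of all), 0 (0%) passed an FDR of 0.05 in edgeR's quasi-likelihood test, and the lowest FDR was 0.590. At an unadjusted p under 0.05 there were 2469 windows, or 5.19%, with 1323 higher and 1146 lower in TBT. The likelihood ratio test and DESeq2 also called 0, with 2584 and 915 at an unadjusted p under 0.05. The median log2 fold change was 0.0056. The 95% interval of the log2 fold change lay within -1 and 1 at 97.0% of the tested windows, and the median standard error was 0.21. The groups did not overlap in scaled counts at 67 windows (0.141%) with TBT higher and at 51 (0.107%) with TBT lower.

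The 3 windows with the lowest p in each direction are described to show what the clearest differences looked like. A window 86.9 kb after the start of Prox1, a homeobox transcription factor gene, has no CpG site. It held 10, 5, 11, 11 and 4 counts in DMSO and 12 to 20 in TBT (median 18). All 7 TBT libraries were above all DMSO libraries, with a log2 fold change of 1.06 ± 0.25 (SE) and an FDR of 0.590 by edgeR. The Gm15975 window, in the promoter of a processed pseudogene, has 6 CpG sites and 19 in 500 bp. It held 18, 23, 20, 13 and 17 counts in DMSO and 23 to 38 in TBT (median 30). Here too the scaled counts of the groups did not overlap, with a log2 fold change of 0.73 ± 0.18 and an FDR of 0.5996. Reads of a processed pseudogene may be shared with its parent gene or other copies, so the position is uncertain. The window 85.0 kb before the start of Larp1, which encodes an RNA-binding regulator of translation, held 18, 15, 15, 9 and 13 counts in DMSO and 12 to 36 in TBT (median 22). In 6 of the 7 TBT libraries its scaled count was above all DMSO libraries.

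Among the windows lower in TBT, the Rfx8 window lies in an intron of this RFX family gene and has 1 CpG site. It held 20, 19, 20, 23 and 13 counts in DMSO and 5 to 16 in TBT (median 10). In 6 of 7 TBT libraries the scaled count was below all DMSO libraries, with a log2 fold change of -0.96 ± 0.23 (SE) and an FDR of 0.590 by edgeR. The window 55.3 kb before the start of Wnt4, a signaling gene of gonad development, held 32, 29, 23, 31 and 24 counts in DMSO and 10 to 25 in TBT (median 15). It also was below all DMSO libraries in 6 of 7 TBT libraries, with a log2 fold change of -0.77 ± 0.18 (FDR = 0.590). The Galnt18 window lies in an intron of this glycosyltransferase gene, and held 18, 19, 9, 18 and 16 counts in DMSO and 4 to 13 in TBT (median 7). DMSO library 3 stood apart from the other DMSO libraries at this window, and 5 TBT libraries were below it.

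**Figure D4:**
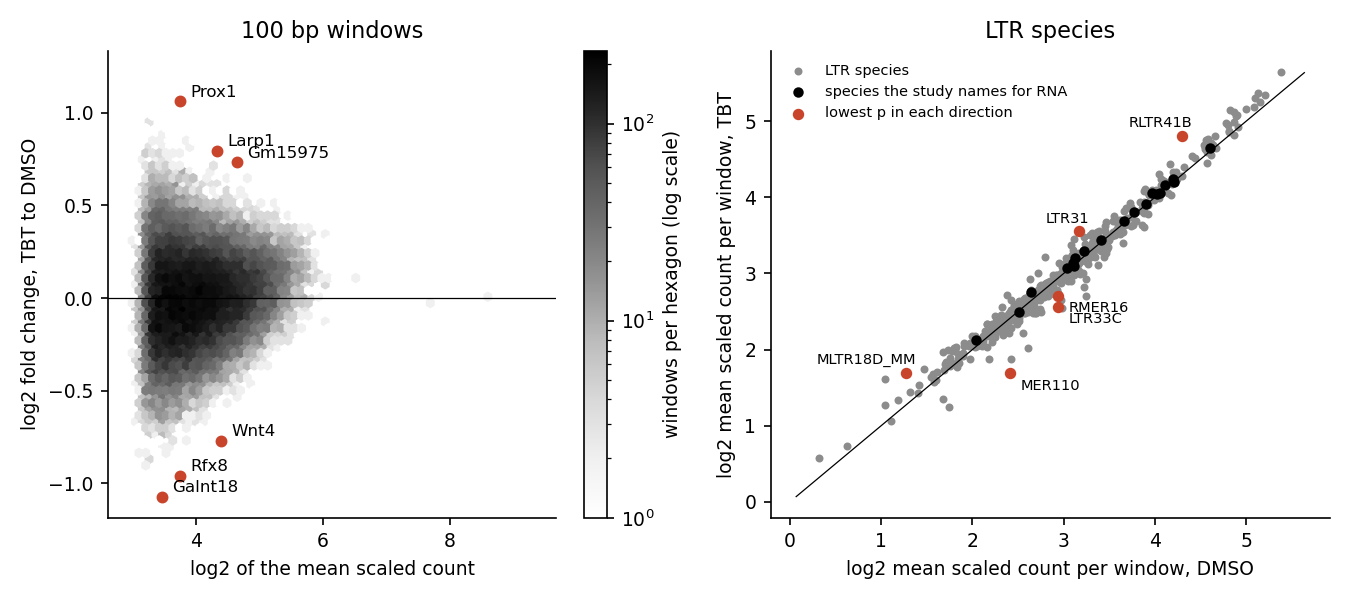
Left: log2 fold change of TBT to DMSO (y axis) against the log2 mean scaled count (x axis) of the 47563 tested windows as shaded hexagons, with the 6 windows of lowest p in red. Right: log2 mean scaled count per window of LTR species in DMSO (x axis) and TBT (y axis), with the line of equal values, the 19 species the study names for their RNA in black and the 6 species of lowest p in red. On the left, the median log2 fold change is 0.0056 over all tested windows. It moves with the mean scaled count, from -0.018 under 15 to 0.023 at 20 to 30 and 0.084 at 30 or more. On the right, the black points lie on or close to the line.

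Touching windows were merged into 128612 regions, of which 100572 consist of 1 window. Of 44478 regions tested, 0 (0%) passed the quasi-likelihood test, 2076 (4.67%) had an unadjusted p under 0.05, and the groups did not overlap at 65 (0.146%) with TBT higher and 46 (0.103%) with TBT lower. The likelihood ratio test called 3 regions and DESeq2 called 1, with 2235 and 1056 at an unadjusted p under 0.05. The region nearest to the threshold is chr2:138836201-138836600 on GRCm38, 4 windows outside genes and within IAPEz-int, the internal part of an intracisternal A particle (IAP) retrovirus. It held 38, 48, 45, 40 and 56 counts in DMSO and 12 to 29 in TBT (median 20). All 7 TBT libraries were below all DMSO libraries, with a log2 fold change of -1.19 ± 0.20 (SE, 95% interval -1.60 to -0.77) and an FDR of 0.0856 by edgeR's quasi-likelihood test. It passed in DESeq2 (FDR = 0.0109) and in the likelihood ratio test (FDR = 0.000258). It also passed in the quasi-likelihood test without a filter (0.0157), with a mean of at least 20 (0.0368), without TBT library 8 (0.0371) and without TBT library 12 (0.0284). It did not pass with total counts (0.0815) or median-ratio factors (0.0894), nor without any of the other 10 libraries, where the FDR reached 0.606 without DMSO library 5.

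The counts of this region are not independent between its windows. Its windows at 138836401 and 138836501 had identical counts in all 12 libraries, with 11, 15, 14, 12 and 17 in DMSO and 4 to 9 in TBT. The window at 138836301 held 10 to 15 counts in DMSO and 3 to 9 in TBT. A fragment can thus have been counted in several windows, and the sum over the region may hold the same fragments several times. None of its windows had enough counts for the test of single windows. IAPEz-int has many like copies in the genome, and how reads that match several copies were placed is not given in the sources used here, so the position is uncertain. Over the 771 windows of IAPEz-int, the log2 fold change of the summed counts was 0.09 ± 0.09 (SE) with an FDR of 0.986, so the species as a whole did not pass.

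The other regions named by p had an FDR of 0.624 or more. A region 1068 kb before Cntn5, of 4 windows with 1 CpG in all, held 4, 0, 5, 8 and 2 counts in DMSO and 4 to 26 in TBT (median 16). Its log2 fold change was 2.05 ± 0.43 (SE), with an FDR of 0.624 by edgeR, and it passed without a filter (0.0157) and in the likelihood ratio test (0.00872), but under no other alternative. A region within MT2B1, an LTR of the ERVL family, held 23, 28, 22, 14 and 21 counts in DMSO and 23 to 47 in TBT (median 45). In 6 of 7 TBT libraries its scaled count was above all DMSO libraries (FDR = 0.983). A region 837 kb before Pabpc4l held 2 to 7 counts in DMSO and 7 to 18 in TBT, without overlap of the scaled counts (FDR = 0.940). Among regions lower in TBT, an intronic region of Nkain2 that overlaps an MTD element held 32, 35, 27, 31 and 20 counts against 11 to 20 in TBT (median 16). The scaled counts of its groups did not overlap, with a log2 fold change of -0.84 ± 0.18 and an FDR of 0.624. The region at Rfx8 holds the Rfx8 window described above and a neighbour, and held 23 to 38 counts in DMSO and 12 to 31 in TBT.

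**Figure D5:**
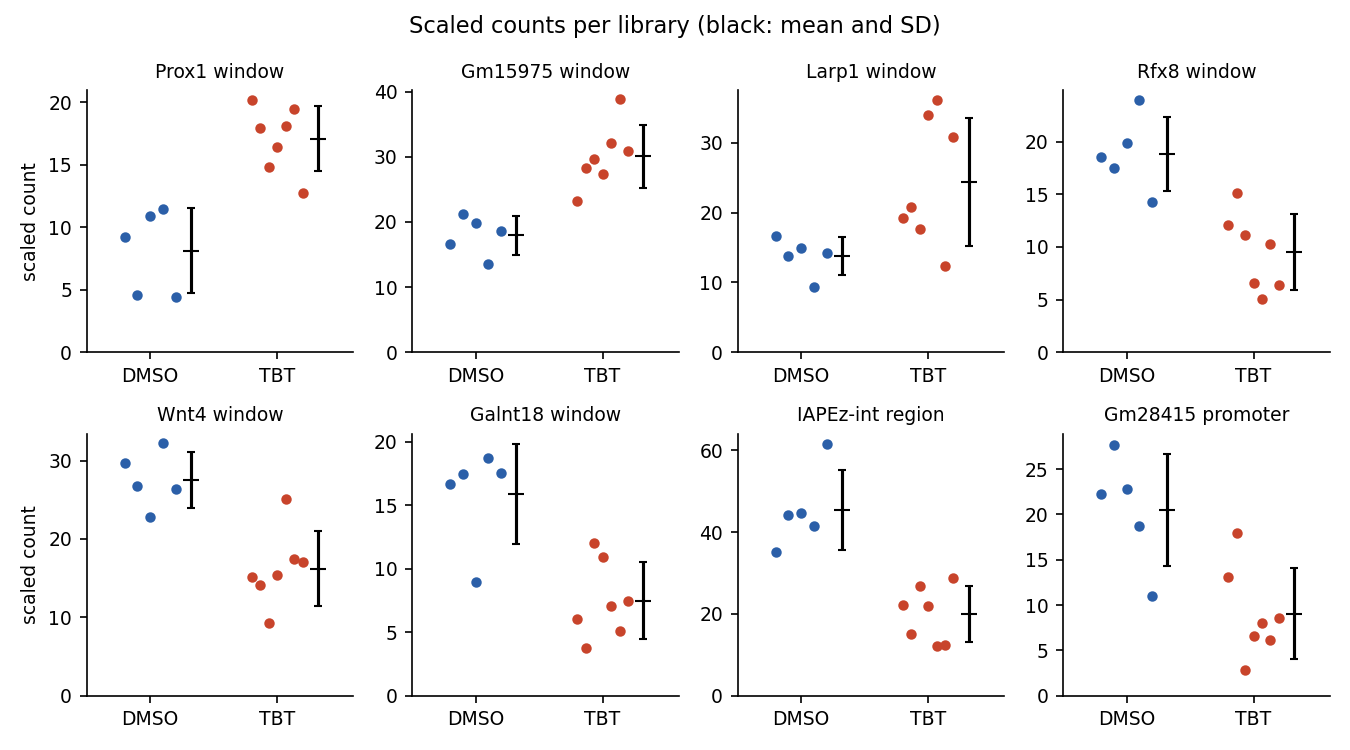
Scaled counts (y axis, from 0) of each DMSO (blue) and TBT (red) library at the 6 windows of lowest p, the IAPEz-int region and the Gm28415 promoter, with the group mean and SD in black. The groups do not overlap at the Prox1 and Gm15975 windows and the IAPEz-int region, and overlap in the other 5 panels.

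Promoters gave no call. Windows of the table fell in 4022 promoters, of which 1494 were tested. The quasi-likelihood test called 0 (0%), with 65 (4.35%) at an unadjusted p under 0.05, 32 higher and 33 lower in TBT. The likelihood ratio test called 1 and DESeq2 called 0, with 74 and 29 at an unadjusted p under 0.05, and without TBT library 8 there were 101 of 1445 at this p with 0 passing. The groups did not overlap at 1 promoter (0.0669%) with TBT higher, which was Gm15975, and at 3 (0.201%) with TBT lower. The lowest FDR, 0.262, was that of Gm28415, a lincRNA gene, with 24, 30, 23, 18 and 10 counts in DMSO and 3 to 19 in TBT (median 8). DMSO library 5 lay within the TBT values. The log2 fold change was -1.18 ± 0.28 (SE), and the promoter passed without a filter (FDR = 0.00757), in the likelihood ratio test (0.0471) and without TBT library 7 (0.0212), but under no other alternative, with up to 0.941 without DMSO library 2. The promoter of 1700024B05Rik held 5 to 14 counts in DMSO and 4 to 27 in TBT (FDR = 0.951), and that of the snRNA gene Gm23714 held 33 to 46 and 39 to 82 (FDR = 0.951). The lincRNA gene Gm5608 had 22 to 42 counts in DMSO and 7 to 29 in TBT (FDR = 0.951). Gm8357, a processed pseudogene with 3 promoter windows, had 160 to 205 counts in DMSO and 122 to 164 in TBT (FDR = 0.951).

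The table holds few promoter windows of the genes that would be of most interest for fetal testis and for TBT. TBT activates RXR and PPARγ, nuclear receptors that act as a pair in fat cell differentiation. Of 19 genes of this list, 2 had promoter windows. Lep, which encodes the fat cell hormone leptin, held 38, 55, 42, 34 and 56 counts in DMSO and 28 to 46 in TBT (median 38), so the groups overlapped (log2 fold change -0.25 ± 0.18 (SE), FDR = 0.968 by edgeR). Cebpb, a transcription factor gene of fat cell differentiation, held 0 counts in every DMSO library and 0 to 2 in TBT at a window with 16 CpG sites. In the bodies and promoters of 12 of these genes, 24 windows were tested. Their median log2 fold change was -0.06 against 0.0056 over all tested windows, with 8 higher and 16 lower in TBT, and 0 passed. The 4 windows of this list with an unadjusted p under 0.05 lay in introns of Rxrg, Pparg and Zfp423 (lower in TBT) and an exon of Ppara (higher). They are 16.7% of the 24, beside 5.19% over all windows. They were named after their values were seen. The Pparg window held 20, 10, 17, 12 and 15 counts in DMSO and 3 to 16 in TBT (median 10), and its groups overlapped (log2 fold change -0.50 ± 0.25, FDR = 0.956). The Ppara window held 36 to 47 counts in DMSO and 37 to 61 in TBT (log2 fold change 0.31 ± 0.15, FDR = 0.947).

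Germline genes had windows in 18 of 29 genes, of which 17 windows were tested. Their median log2 fold change was 0.06, with 10 higher and 7 lower, 4 at an unadjusted p under 0.05 (23.5%, beside 5.19% over all windows) and 0 passing. At Rpl10l, described above, the log2 fold change of the promoter was 0.32 ± 0.17 (SE, FDR = 0.951 by edgeR). Piwil2, which encodes a PIWI protein of the piRNA pathway, held 30, 28, 34, 36 and 28 counts at its promoter window in DMSO and 18 to 42 in TBT (median 35). The log2 fold change there was 0.03 ± 0.18 (FDR = 0.995). The other windows of this list with an unadjusted p under 0.05 lay in introns of Mov10l1, which encodes a piRNA helicase and had 2 windows higher in TBT, and of Stk31, with 1 lower. They too were named after their values were seen. Thap1, a zinc finger transcription factor gene, had 0 windows in the table.

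Imprinted genes had windows in 15 of 26 genes. Of 26 windows tested, 13 were higher and 13 lower in TBT, with a median log2 fold change of -0.01, 1 at an unadjusted p under 0.05 and 0 passing. At the Gnas locus, an imprinted cluster, the promoter window held 31, 18, 30, 21 and 12 counts in DMSO and 16 to 40 in TBT (median 24), and at Inpp5f the window held 12 to 22 and 9 to 25 counts. The groups overlapped at both. Hox genes had windows in 13 of 39 genes, 32 windows in all. These windows had a mean of 3.53 CpG against 0.813 over all windows, and a median of 2.06 scaled counts against 4.86. Windows with under 2 scaled counts made up 50.0% of them against 27.6% of all windows. The promoter windows of Hoxa9, Hoxd9, Hoxc5, Hoxc8, Hoxc9 and Hoxc11 held 0 to 9 counts in each library. Only 3 windows of Hox genes had enough counts for the test, and 0 passed.

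Genes of DNA methylation and silencing had 20 windows tested in this comparison, 16 higher and 4 lower in TBT, beside 51.1% higher over all tested windows. The 71 windows of this list, tested or not, held a mean of 1.92 CpG against 0.813 over all windows. All 6 of them with 6 or more CpG held under 2 scaled counts. The share higher in TBT differed with CpG number, as given below. The CpG number of the 20 tested windows was not compared, so this difference was not tested apart from CpG number. The 20 tested windows had a median log2 fold change of 0.08, with 3 at an unadjusted p under 0.05 (15%, beside 5.19%) and 0 passing. An intronic window of Dnmt3c, a DNA methyltransferase gene of the male germline, held 19, 23, 16, 21 and 22 counts in DMSO and 9 to 20 in TBT (median 14). An exonic window of Dnmt3a, which encodes a de novo methyltransferase, held 31 to 40 and 29 to 53. Neither passed (FDR = 0.916 and 0.956 by edgeR), the groups overlapped at both, and both were named after their values were seen. The other window of this list with an unadjusted p under 0.05, higher in TBT, lies on chromosome 18 and is not named here. The promoter windows of Uhrf1, a maintenance factor of DNA methylation, held 0 to 4 counts in each library. Lists of somatic cell types of the testis had few windows. Sertoli cell genes had 12 windows tested (5 higher, 7 lower), Leydig cell genes 5 (1 higher, 4 lower), and genes of peritubular, endothelial and blood cells 14 (7 higher, 7 lower), with 0 passing and 0 at an unadjusted p under 0.05 in each. At the promoter of Cdh5, an endothelial cadherin gene, 19 to 26 counts in DMSO stood against 20 to 32 in TBT (FDR = 0.995). No promoter window of a Sertoli or Leydig cell gene of the lists was in the table, so the labelled cell type could not be checked at such promoters.

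A list of 61 genes with differential methylation at promoter CpG islands, which the study chose on MBD-seq libraries of this series, had windows in 32 genes. Of 73 windows tested, 36 were higher and 37 lower in TBT, with a median log2 fold change of -0.0037, 4 at an unadjusted p under 0.05 (5.48%) and 0 passing. The text of the study names P6 cells of F1 as the source of the list, whereas the list itself is headed F3. If it was chosen on the F3 libraries, its counts are not independent evidence of a direction. The promoter windows of 4 of its genes were in the table. Gm13363 held 30, 26, 19, 24 and 23 counts in DMSO and 20 to 31 in TBT (median 28), and Prr23a2 held 19 to 34 and 14 to 52. Hoxc5 and Otop3 held 0 to 6 counts in each library.

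LTR elements of 588 species overlapped 22997 windows (13.99%). The level per window varied between species in both groups. Among the 183 species with at least 30 windows, IAPLTR2b (32.2 scaled counts per window), IAPLTR2_Mm (29.6) and IAPEy-int (22.4) were the highest, all of them IAP elements of the ERVK family, which is known to be silenced by DNA methylation. ORR1A0-int (1.61) and MTA_Mm (2.63), of the ERVL-MaLR family, were the lowest, and MERVL-int, an element active in early embryos, stood at 3.03. These species also differed in CpG number, with 4.94 CpG per window in IAPLTR2_Mm and 0.297 in MTA_Mm.

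Between TBT and DMSO, no LTR species passed the test. Of 541 species tested, the quasi-likelihood test called 0 (0%), with 16 (2.96%) at an unadjusted p under 0.05, and a lowest FDR of 0.937. The likelihood ratio test and DESeq2 also called 0, with 20 and 13 at an unadjusted p under 0.05. This count was 42 of 538 without TBT library 8, 25 of 538 without TBT library 7 and 26 with a smooth offset on CpG number, with 0 passing in each. The groups did not overlap at 1 species (0.185%) with TBT higher and 0 with TBT lower. The 95% interval of the log2 fold change lay within -1 and 1 for 98.7% of species. The species with the lowest p higher in TBT were LTR31 (5 windows), MLTR18D_MM (19 windows) and RLTR41B (2 windows), with log2 fold changes of 0.38 ± 0.12, 0.42 ± 0.13 and 0.51 ± 0.19 (SE). Those lower in TBT were RMER16 (-0.25 ± 0.08), MER110 (-0.73 ± 0.24) and LTR33C (-0.40 ± 0.13). At LTR31, the DMSO libraries had 10.4, 7.37, 8.93, 9.36 and 8.79 scaled counts per window, and the TBT libraries 10.01 to 14.5 (median 11.5), so the groups overlapped.

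The 19 LTR species that the study names for RNA, some higher and others lower in TBT, all had windows and were tested. Of these, 15 were higher and 4 lower in TBT, beside 54.0% higher among all 541 tested species. But 10 of the 19 were higher with total counts and 12 to 17 with 1 library left out, so the direction of some turned. They had log2 fold changes from -0.03 to 0.09, a median of 0.03 (0.0069 over all species), 0 at an unadjusted p under 0.05 and 0 passing. RMER16-int had the largest value, 0.09 ± 0.06 (SE), and MYSERV6-int the lowest, -0.03 ± 0.07. The study names both for higher RNA in TBT, RMER16-int only in F1 germline cells. ERVB4_1B-I_MM-int, named for lower RNA, stood at 8.69 ± 0.463 scaled counts per window in DMSO (SD, n = 5) and 9.23 ± 0.711 in TBT (SD, n = 7). At MMERVK10C-int, a young ERVK element named for higher RNA, the level was 13.6 ± 0.568 in DMSO and 14.02 ± 0.602 in TBT. For all 19 species the difference was thus small beside a 2-fold change, and the highest standard error was 0.101.

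Summed over families, small differences depended on the scale. The ERVK family's 8965 windows held 9.16, 9.02, 8.85, 9.14 and 9.14 scaled counts per window in DMSO, and 9.23 to 9.89 (median 9.32) in TBT. All TBT libraries were above all DMSO libraries on this scale, by 0.331 scaled counts per window (exact permutation test, two-sided, p = 0.00253, the smallest it can give, and 0.0101 after adjustment over 4 families). As a share of all counts, the family held 6.33% to 6.76% in DMSO and 6.16% to 7.07% in TBT, and the groups overlapped (exact permutation test, p = 0.470, and 0.558 after adjustment). ERV1 windows also passed on the scaled counts, with 9.003 ± 0.157 in DMSO (SD, n = 5) and 9.30 ± 0.209 in TBT (SD, n = 7; exact permutation test, p = 0.0101, 0.0202 after adjustment), and not as a share of all counts (p = 0.558). ERVL-MaLR windows held 6.15 to 7.16 scaled counts in DMSO and 5.97 to 8.14 in TBT (exact permutation test, two-sided, p = 0.942). The families ERVL-MaLR and ERVL passed on neither scale. CpG number was summarised over slightly larger sets of windows than those tested. The mean was 1.11 CpG over 9245 ERVK and 1.12 over 2046 ERV1 windows. It was 0.709 over 2613 ERVL and 0.610 over 9945 ERVL-MaLR windows. The part of CpG number in the family differences was not tested. The family level was chosen after its values were seen.

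In the tested windows, the fold change moved with the CpG number of the window. The median log2 fold change was 0.0047 in windows with no CpG, -0.01 at 1 CpG and -0.0054 at 2 CpG, and 47.8% and 48.8% of the windows with 1 and 2 CpG were higher in TBT. It was 0.06 at 4 CpG, 0.13 at 6 to 8 CpG, where 76.4% of 653 windows were higher in TBT, and 0.15 at the 82 windows with 9 or more. A smooth offset per library on CpG number takes out such a trend by its construction, and left medians of 0.0013, 0.0036 and 0.0096 at 0, 4 and 6 to 8 CpG. The level of windows with 6 to 8 CpG was 17.3 to 19.6 scaled counts in DMSO and 16.5 to 23.01 in TBT (median 20.7). The groups thus overlapped, with TBT library 8 the lowest of all. TBT libraries 9 to 12 (20.7, 22.6, 21.1 and 23.01) lay above all DMSO libraries, and TBT libraries 6 to 8 (18.9, 17.3 and 16.5) did not. The enrichment ratio also differed between libraries, and its part in this trend was not tested.

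The study also profiled P6 cells of F1 fetuses, whose mothers were the exposed dams, with 3 DMSO and 4 TBT libraries. The F3 and F1 tables share 943 windows, of which 319 could be tested for a difference between the TBT effects of F3 and F1. The quasi-likelihood test called 0 (0%), with 17 (5.33%) at an unadjusted p under 0.05, and the likelihood ratio test and DESeq2 called 0, with 19 and 11. The lowest FDR, 0.0539, was that of the Galnt18 window. On the scale of the shared windows it held 15.7 scaled counts in DMSO and 7.39 in TBT in F3, and 7.95 and 11.5 in F1. The difference of the log2 fold changes was -1.71 ± 0.45 (SE, 95% interval -2.60 to -0.83). It passed without DMSO library 3 (FDR = 0.0305), without TBT library 8 (0.0341) and without TBT library 9 (0.0346) of F3. It passed under no other alternative run, with 0.829 in DESeq2. The F1 libraries were not left out in turn. Generation and the separate tables could not be told apart. For only 38.6% of the shared windows did the 95% interval of the difference lie within -1 and 1, so this comparison was less precise than that within F3.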

How the data were processed

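Methylated DNA of P6 cells was enriched with the MethylMiner kit from fragments of 100 to 200 bp and sequenced, and an input library served the study's own analysis with QSEA. That analysis was not repeated and the input library was not used here. The deposited values are counts, whole numbers of reads per 100 bp window that the authors did not normalize for depth or CpG number, and beside them, per the file headers, the other column CF holds the CpG number. Per the labels, the submitters' processing notes name Trim Galore, STAR, edgeR and mm10, but the aligner, duplicate removal and placement of multiply mapping MBD-seq reads are not given in the sources used here. Counts reached 1105120 to 1556376 per library over the windows.

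Groups were taken from the labels, 5 DMSO (libraries 1 to 5) and 7 TBT (libraries 6 to 12). Windows were annotated with GENCODE genes and RepeatMasker LTR positions on GRCm38. Windows, merged touching windows, promoters and LTR species kept by filterByExpr were compared in R 4.3.3 by edgeR 4.0.16 (quasi-likelihood F-test, TMM factors), with Benjamini-Hochberg adjustment and a threshold of 0.05. The difference from F1 was an interaction term over the windows shared by both tables. Shares per library were compared with the exact permutation test over 792 arrangements in scipy 1.17.1, whose smallest p is 0.00253. Alternatives were total counts, median-ratio factors, no filter, only features with a mean count of 20 or more, DESeq2 1.42.0 and edgeR's likelihood ratio test. Others were smooth offsets on CpG number, 500 bp bins and promoters of 500 bp before to 500 bp after the start. Shares among tested windows only and log ratios to the largest class were also used. Each F3 library was left out in turn, and no F1 library was. Chosen after seeing the data were offsets on CpG number for 500 bp, promoters and species, windows with a mean of at most 100, and leaving out TBT libraries 8 and 12.

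The members and gene lists were chosen with earlier results of these data known. Named were the 10 called features with the largest change in each direction and, where fewer than 3 passed, the 3 with the lowest p in that direction; every list gene whose promoter passed; the 2 genes of each list with the highest promoter counts; the LTR species the study names; and Thap1 and Dazl. Chromosome 18 was tested but not named. Python 3.11.15 (pandas 2.3.3, numpy 2.4.6, matplotlib 3.10.9) and the R package data.table in version 1.17.8 were used for summaries and figures.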

Additional observations from a re-analysis of the deposited data

Results flagged for a closer look

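In 12 of 190 sets of 5 DMSO or 7 TBT values, the highest or lowest library stood apart from its group by Dixon's test, which chance alone gives in about 1 in 20. TBT library 8 stood apart in the share of counts in introns, at 44.04% against 44.4% to 44.6% in the other TBT libraries, and at the Nup205 window, at 3.70 scaled counts against 0 in the others. DMSO library 3 stood apart in the ratio of X to autosomal counts over all windows, at 0.317 against 0.342 to 0.349, and at the Galnt18 window, at 8.93 scaled counts against 16.7 to 18.7. DMSO library 2 was high at the Rpl10l promoter, which is 1 window and counts here both as window and as promoter, at 58.9 scaled counts against 40.7 to 45.025. DMSO library 5 was high at the Zcwpw1 window, at 47.2 against 30.6 to 31.3, and DMSO library 4 at the Uhrf1 promoter, at 4.16 against 0 to 0.926. TBT library 12 was high at the Cdh5 promoter (34.1 scaled counts), the Rxrg window (18.1) and the Hoxa9 promoter (8.52). TBT library 7 was high at the Hoxc11 promoter (2.83). The cause was not tested.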

How the results depend on the processing

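No paired analysis was possible because the DMSO libraries carry the numbers 1 to 5 and the TBT libraries 6 to 12, and no number is shared. Windows, LTR species and classes of CpG number gave 0 calls under every alternative run and without each library. Merged regions gave 2 calls without a filter, 1 with a mean of at least 20, 3 in the likelihood ratio test, 1 in DESeq2, and 0 to 1 with 1 library left out (1 without TBT library 8 or TBT library 12). Promoters gave 3 calls without a filter, 1 in the likelihood ratio test, and 0 to 1 with 1 library left out (1 without TBT library 7). Classes of genomic feature gave 0 to 1 with 1 library left out (1 without DMSO library 5, TBT library 7 or TBT library 10). The difference from F1 gave 0 to 1 with 1 F3 library left out (1 without DMSO library 3, TBT library 8 or TBT library 9). The difference in the CpG-free share, 0.434 percentage points, was -0.0815 among tested windows, -0.0997 without TBT libraries 8 and 12, and between -0.370 and 0.872 with 1 library left out. The cause was not tested. The direction of the 3 windows, regions, promoters and species of lowest p each way held under the alternatives run, and the other named features were not refitted one by one. Of the 19 LTR species the study names, 10 to 17 were higher in TBT under the alternatives, against 15. Windows with few counts were less precise, with a median standard error of 0.25 under a mean of 15 scaled counts and 0.16 at 30 or more.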

Other observations

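A set of 28 windows held a mean of more than 100 scaled counts, and 16 of them more than 200. They took 0.621% of all counts. At 12 of these windows the raw counts were nearly equal in all libraries, with a variance under 0.5 times the mean, which is less than counting alone would give. A window at Gm21738 on chromosome 14 (GRCm38, 19418301 to 19418400) held 623 to 659 counts in the 12 libraries, and a window at Gm10717 on chromosome 9 (3028701 to 3028800) held 391 to 401, although the scale of the libraries ran from 0.911 to 1.09. After scaling, the variance at the Gm10717 window was 1.59 times the mean, and it was 0.0223 times the mean before. The way reads were counted there is not given in the sources used here, and the cause was not tested.

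Other windows of this set varied between libraries far beyond counting. At a window of Sfi1, a centrosome gene on chromosome 11 (3136601 to 3136700), the counts were 383, 364, 292, 388 and 262 in DMSO and 208 to 388 in TBT, highest among TBT in library 8 and lowest in library 12. At a window of the pseudogene Pisd-ps2 on chromosome 17 (3082501 to 3082600), they were 294, 243, 193, 244 and 192 in DMSO and 160 to 244 in TBT, again with libraries 8 and 12 at the ends of TBT. The log2 fold changes were -0.26 ± 0.09 and -0.28 ± 0.09 (SE), and neither passed (FDR = 0.914 by edgeR for both). TBT library 8 also had the highest CpG-free share and the lowest enrichment ratio of all libraries, and the part of this in these differences was not tested.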
